A study of Mus musculus with 15 samples.

Results

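The clustered histone genes are the genes of the core and linker histones that lie side by side in the mouse histone clusters, named Hist1h, Hist2h, Hist3h and Hist4h until recently. They were found among the transcript clusters of an Affymetrix mouse array, the rows of the deposited table, as every row with at least 1 symbol starting with H2ac, H2bc, H3c or H4c, or with a former name starting with Hist1h, Hist2h, Hist3h or Hist4h. The rule gave 58 rows of the 23410 that carry a gene symbol, 48 by the current symbol and 10 by the former name alone. Of these rows, 5 were for the linker histone H1, 8 for H2A, 18 for H2B, 13 for H3, 13 for H4, and 1 held an H2B together with an H1 symbol. Rows were typed by most of their histone symbols. The H2A rows shared by 19 and by 20 genes also carry 1 H3 symbol each, and at least 1 symbol from outside the clusters. A single gene stood on 31 rows, and 27 rows were shared by 2 to 20 genes, from which no gene is named here.

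The arrays measured RNA of TER119+ cells of E13.5 fetal liver in mice of the FVB/NJ strain. TER119 is found on the surface of erythroid cells as they mature, and the cells were taken with magnetic beads against it, per the labels. There were 4 arrays of the double mutant Klf3-/- Klf8gt/gt, 3 of Klf3-/-, 4 of Klf8gt/gt, in which gt stands for a gene-trap allele, and 4 of wild type. Klf3 and Klf8 encode Krüppel-like factors, zinc-finger proteins that bind CACCC boxes and recruit a co-repressor. The genotypes name no promoter or Cre line, so the alleles are those of the whole embryo and not of the erythroid cells alone. The design text says that litters were matched where possible, without naming the litter of an array.

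A cell that copies its DNA has to make a new set of nucleosomes, in which H2A, H2B, H3 and H4 form the core and H1 sits on the linker DNA. The clustered genes supply these proteins in S phase from many near-identical copies without introns, and most of their transcripts end in a conserved stem-loop that is bound by SLBP, in place of a poly(A) tail. Erythroid precursors of the fetal liver divide rapidly before they condense their chromatin and expel the nucleus. The RNA was labelled with the Affymetrix IVT Express kit, per the labels, a kit that primes on poly(A) tails, and how much of the tailless histone RNA it took up was not measured. Levels are therefore compared between arrays within a row, and never between rows as amounts of RNA.

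Promoters are shown for 4 genes that later results turn on. H1f2 and H2bc8 had the smallest p for the double mutant against wild type in limma. H4f16 and H4c6 are 2 of the 10 histone rows on which all Klf3-/- arrays lay below all wild-type arrays. Each promoter is the RefSeq sequence of build GRCm38.p6 from 250 bases before to 50 bases after the gene's start, 300 bases read 5′ to 3′ on the gene's strand. Capitals mark matches on either strand to the CACCC box, to the CCAAT box, to the TATA box letters TATAAA or to the octamer ATTTGCAT, none of which overlapped another. H1f2 lies at chr13:23738557-23738856 on the plus strand, H2bc8 at chr13:23571150-23571449 on the plus strand, H4f16 at chr6:136804382-136804681 on the minus strand and H4c6 at chr13:23551619-23551918 on the minus strand.
H1f2: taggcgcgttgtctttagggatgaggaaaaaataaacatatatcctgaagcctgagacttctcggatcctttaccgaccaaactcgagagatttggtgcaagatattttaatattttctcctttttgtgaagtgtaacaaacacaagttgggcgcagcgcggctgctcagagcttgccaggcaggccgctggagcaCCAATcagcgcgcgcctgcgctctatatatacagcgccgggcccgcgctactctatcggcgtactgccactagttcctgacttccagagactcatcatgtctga
H2bc8: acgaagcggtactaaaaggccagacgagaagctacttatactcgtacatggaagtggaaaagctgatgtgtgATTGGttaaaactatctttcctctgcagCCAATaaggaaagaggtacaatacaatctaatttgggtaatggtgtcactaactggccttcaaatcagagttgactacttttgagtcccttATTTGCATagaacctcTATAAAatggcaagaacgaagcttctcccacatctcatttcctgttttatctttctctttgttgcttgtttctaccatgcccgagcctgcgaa
H4f16: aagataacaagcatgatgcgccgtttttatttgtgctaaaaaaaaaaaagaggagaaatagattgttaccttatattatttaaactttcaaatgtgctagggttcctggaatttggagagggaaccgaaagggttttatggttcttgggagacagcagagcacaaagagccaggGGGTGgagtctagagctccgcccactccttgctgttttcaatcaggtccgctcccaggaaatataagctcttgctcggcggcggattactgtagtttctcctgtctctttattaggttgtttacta
H4c6: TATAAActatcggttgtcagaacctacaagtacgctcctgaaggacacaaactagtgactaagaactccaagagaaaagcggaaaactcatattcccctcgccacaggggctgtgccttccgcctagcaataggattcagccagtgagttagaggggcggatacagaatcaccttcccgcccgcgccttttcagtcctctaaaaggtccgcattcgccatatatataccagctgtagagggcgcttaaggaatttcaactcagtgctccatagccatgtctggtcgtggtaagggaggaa

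Promoters were at hand for 26 of the 31 genes with a row of their own, and those of H2bc21, H3c7, H4c14, H2bc4 and H2bu1-ps were not used here. CCAAT, read by NF-Y, stood in 22 of the 26 (84.6%), against 37.4% of 32851 mouse promoters of the same length. It was in every H1, H2A, H2B and H3 promoter of the 26, but in 2 of 6 H4 promoters. TATAAA was in 61.5% of the 26 against 13.6% of all. ATTTGCAT, the octamer read by OCT1, was in 9 of the 26 (34.6%), 4 of 5 H2A and 5 of 8 H2B promoters, against 1.74% of all. The CACCC box was in 6 of the 26 (23.1%) against 57.5% of all promoters. Among the sequences shown, it stands in H4f16 alone, on the opposite strand. TTTGGCGC was in 0 of the 26, against 0.514% of all. These are matches of letters in this window and do not show binding. The H2ac8 and H2bc8 windows overlap by 279 bases on opposite strands, and those of H2bc1 and H2ac1 by 220 bases, so these pairs share most of their letters.

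The histone rows were among the brightest of the array. Of the 58 rows, 51 lay above the array's median on all 15 arrays, 31 were in the top 5% of the tested rows by mean signal and 25 in the top 1%. The medians of the arrays lay between 6.28 and 6.41 on the log2 scale. The highest single histone value was 14.32, on an H2A row shared by 20 genes, and the highest value of any row was 14.89. H1f5 (mean 13.62) and H1f1 (13.01), both replication-dependent linker histones, were the brightest rows with 1 gene. H4c4 had a mean of 12.71, H4c14 of 12.61, H2bc14 of 12.28, and H2ac15 and H4c6 of 12.11 each. H3c7, with a mean of 4.39, was the only histone row below the median on all 15 arrays. H1f6, the linker histone of spermatocytes, had a mean of 6.09, and the testis forms H2ac1 and H2bc1 had means of 7.51 and 7.15, near the middle of the array.

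Brightness and spread went together with how many genes shared a row. The 27 shared rows had a median mean signal of 13.69 and a median SD within genotypes of 0.10. The 31 rows with 1 gene had a median mean of 10.29 and a median SD of 0.25, against 0.16 over all tested rows. At the top of the scale, above a mean of 13 (a level chosen after the values were seen), 26 histone rows had a median SD of 0.10 and all 301 tested rows a median of 0.06. Genes that share a row cannot be told apart on it. On most shared rows these are near-identical histone genes, but 1 H2A row also carries the symbol of a gene that is not a histone. A pair of H2B rows and a pair of H4 rows held the same values on every array, so the rows are not independent of each other.

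**Figure D1:**
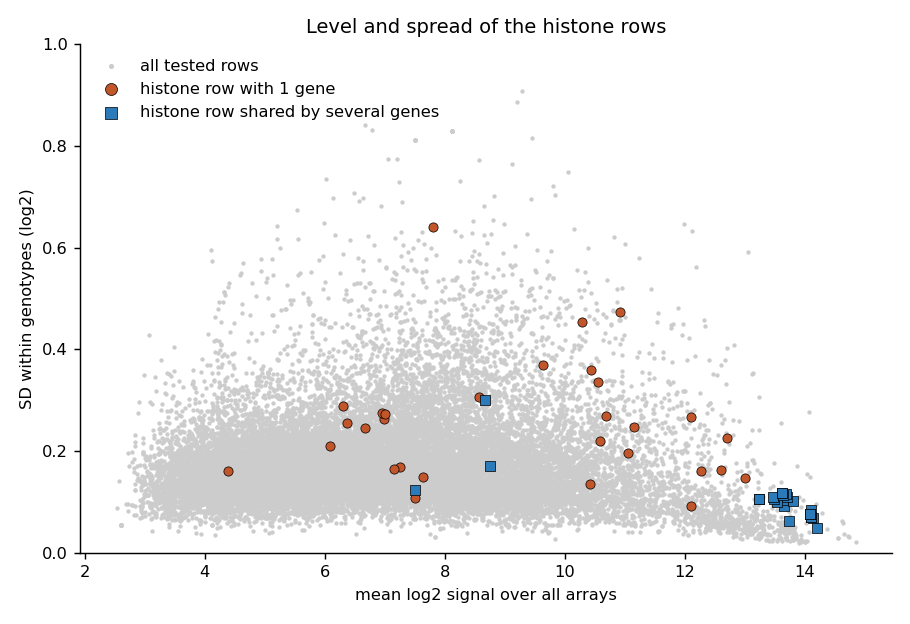
Mean log2 signal over all 15 arrays (x axis) against the SD within genotypes in log2 units (y axis), with 1 point per row. Grey points are the tested rows with an SD up to 1, orange circles the 31 histone rows with 1 gene and blue squares the 27 shared rows, most of which sit at the bright end with small spread.

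Some arrays bear on all results and come first. Correlations between arrays over the tested rows ranged from 0.978 to 0.997. By them, double-mutant array 1 and Klf8gt/gt array 1 stood furthest from the other arrays of their genotype. The sex of each embryo, read from Xist and Y-linked genes, differed between genotypes, with 2 females and 2 males among the double mutants, 2 females and 1 male among Klf3-/-, 2 of each among Klf8gt/gt, and 4 males among wild type. The Klf3 row averaged 11.37 ± 0.28 in the double mutant, 11.32 ± 0.14 in Klf3-/- and 10.27 ± 0.04 in Klf8gt/gt, against 10.27 ± 0.17 in wild type (SD, n = 4, 3, 4 and 4). The Klf8 row averaged 7.29 ± 0.55, 8.71 ± 0.26 and 5.39 ± 0.09 in the same mutants, against 5.36 ± 0.18 in wild type, so neither row had a lower signal in its own mutant than in wild type. In wild type and Klf8gt/gt the Klf8 row lay below the array medians of 6.28 to 6.41, which leaves little room to see a fall. The Klf8 row was lower in the double mutant than in Klf3-/-, with a difference of -1.43 (adjusted p = 0.0265 in limma), and the sources used here do not say whether the probes of either row lie in the altered parts. The 10 erythroid markers with a row had array means between 12.08 and 12.69 near the top of the scale.

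In the double mutant, nearly every histone row of every type had a mean below that of wild type, by small amounts, and no row passed the test. Of the 58 rows, 0 had an adjusted p below 0.05 in limma, where 772 of all tested rows (3.3%) did. The difference was below 0 for 57 of 58 rows and above 0 for 1, where 44.5% of all tested rows were above 0, with a median of -0.18 log2 units against -0.02 over all tested rows. The count below 0 was 53 of 58 when the female double-mutant arrays 3 and 4 were left out, with a median of -0.09. At an unadjusted p below 0.05 there were 22 rows, all lower (37.9% of the histone rows, against 10.1% of all tested rows that were lower). On 10 rows every double-mutant array lay below every wild-type array (17.2%, against 4.75% of all tested rows). These include the pair of H4 rows with identical values. The median difference was -0.34 for H1, -0.18 for H2A, -0.14 for H2B, -0.16 for H3 and -0.28 for H4. Double-mutant array 1 had the lowest median correlation with its genotype, 0.985 against 0.989 to 0.990 for the others. When it was left out, 6 rows passed, all lower, beside a background of 3.35% of all tested rows that passed and were lower. With Klf8gt/gt array 1 left out as well 12 rows passed, all lower (background 4.56%), and H1f2 and H2bc8 were in both counts. Klf8gt/gt array 1 is not part of this comparison, so leaving it out changed no difference, only the estimate of the spread that all genotypes share. Without double-mutant array 3, the lowest array on most histone rows, 56 of 58 rows were below 0, with a median of -0.14. H1f2 and H2bc8 then had an adjusted p of 0.145 and 0.13 in limma. The type medians were each taken over 5 to 18 rows that share genes and arrays, and were not tested.

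**Figure D2:**
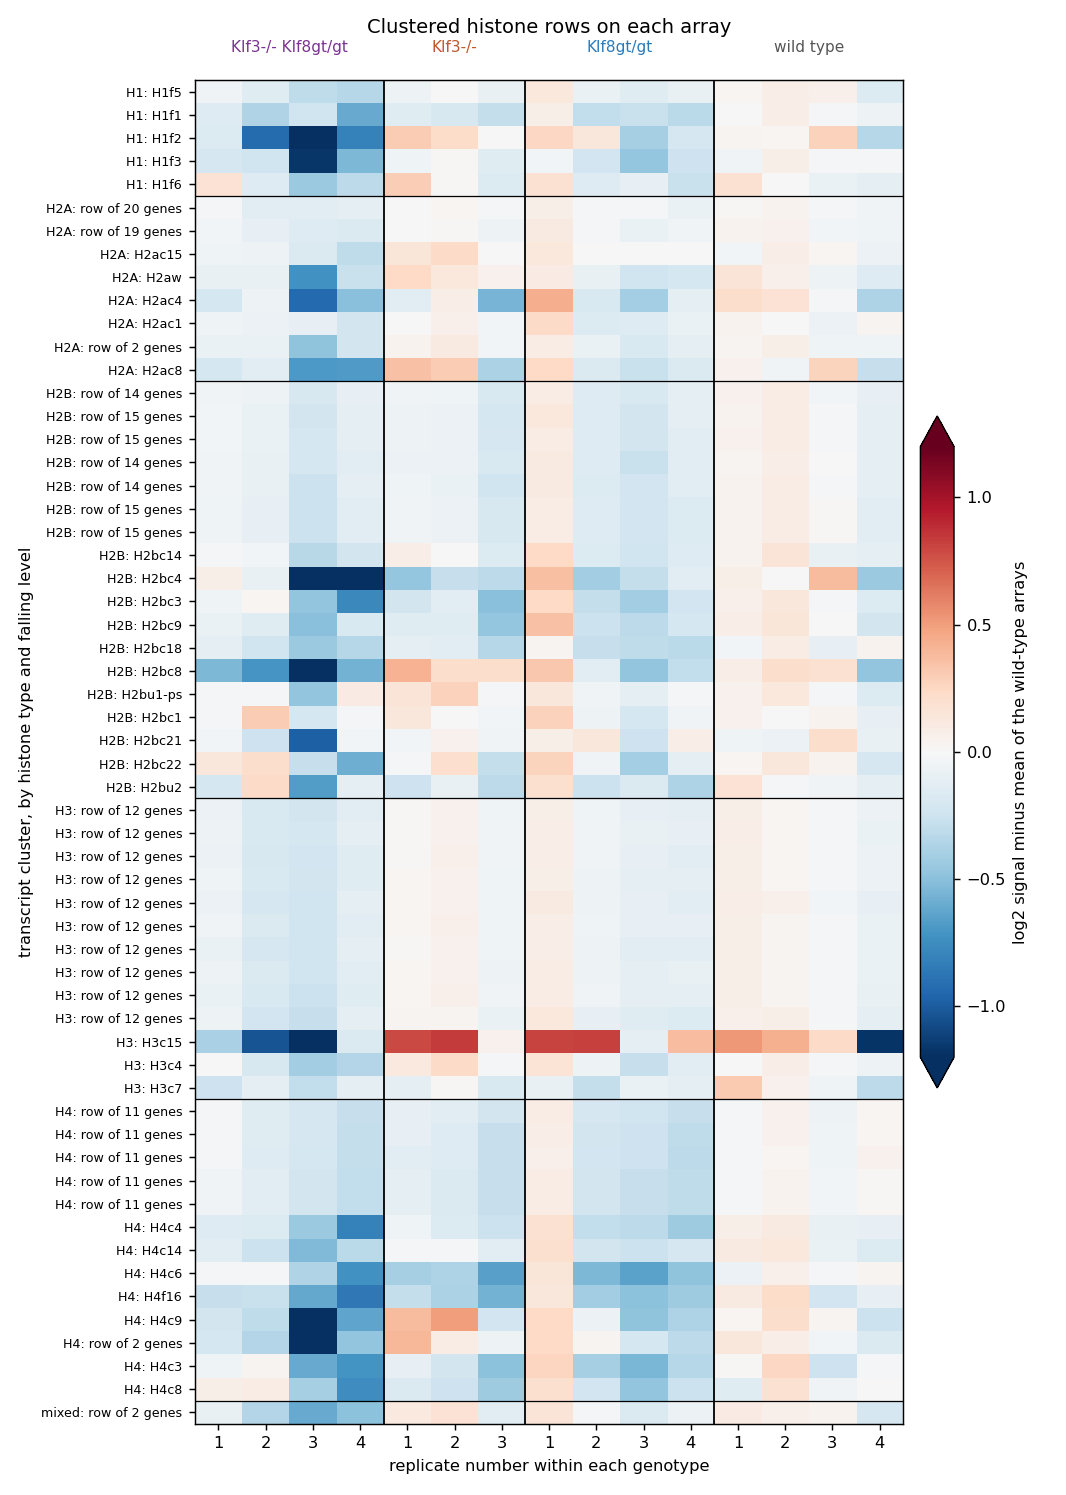
Log2 signal of each histone row on each array minus the mean of the 4 wild-type arrays (colour, blue lower and red higher), with 58 rows by histone type and falling level, and 15 arrays by genotype. Double-mutant arrays 3 and 4 are blue down most of the column, and Klf8gt/gt array 1 is pale red.

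The linker histone H1f2 was the row nearest to the threshold. Its log2 signals were 10.48, 9.72, 9.14 and 9.83 in the double mutant, 10.95, 10.86 and 10.64 in Klf3-/-, 10.89, 10.78, 10.24 and 10.44 in Klf8gt/gt, and 10.68, 10.67, 10.92 and 10.30 in wild type. Double-mutant arrays 2, 3 and 4 were below all other arrays, and array 1 lay within the wild-type range. H1f2 averaged 9.79 ± 0.55 in the double mutant and 10.64 ± 0.26 in wild type (SD, n = 4 each), a difference of -0.85 ± 0.22 (SE), or 1.80-fold lower, with an adjusted p of 0.0501 in limma. Over 26 alternative settings, many of which leave both group means as they are, the difference stayed below 0. The adjusted p in limma ran between 0.00227 and 0.332 and was below 0.05 in 9 of them. Without double-mutant array 3 the difference was -0.63 with an adjusted p of 0.145 in limma.

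The other H1 genes were measured at very different levels. H1f3 read 6.40, 6.36, 5.43 and 6.06 in the double mutant against 6.56, 6.67, 6.59 and 6.58 in wild type, with no overlap, but at about the median of the arrays. H1f1 read 13.04, 12.83, 12.95 and 12.59 in the double mutant against 13.20, 13.27, 13.17 and 13.13 in wild type, also with no overlap, at a far higher level. Their differences were -0.54 ± 0.16 for H1f3 (adjusted p = 0.0896 in limma) and -0.34 ± 0.10 for H1f1 (adjusted p = 0.0929 in limma). The SE uses a spread shared by all genotypes, but the SD of H1f3 was 0.45 in the double mutant and 0.05 in wild type. For such a row the SE can understate the uncertainty of the double mutant. H1f5, the brightest H1, differed by -0.21 ± 0.09 (adjusted p = 0.229 in limma), and H1f6 by -0.19 ± 0.14. The row that holds an H2B and an H1 symbol differed by -0.38 ± 0.12 (adjusted p = 0.0903 in limma).

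**Figure D3:**
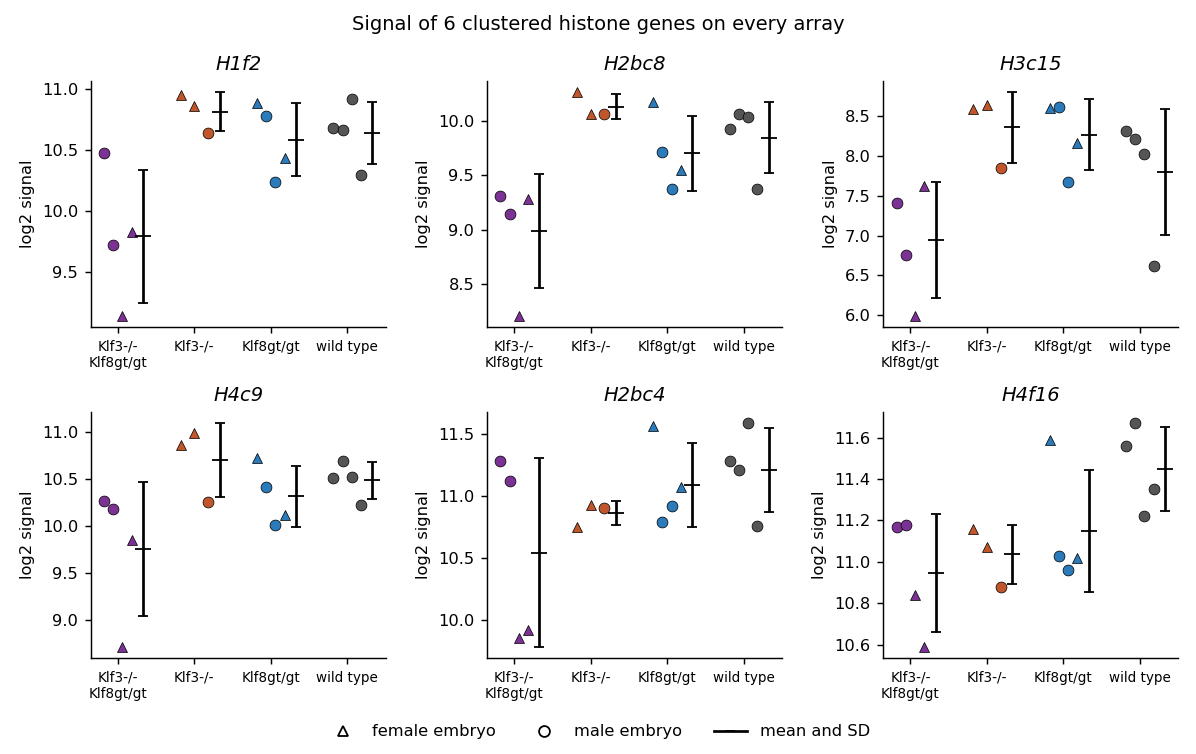
Log2 signal (y axis) of H1f2, H2bc8, H3c15, H4c9, H2bc4 and H4f16 on each of the 15 arrays, by genotype, with triangles for female and circles for male embryos and bars for mean and SD. Double-mutant array 3 is the lowest array in all panels but H4f16, where array 4 is, and wild-type array 4 is low for H3c15 at 6.62.

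Among the H2B genes H2bc8 stood apart. It read 9.31, 9.14, 8.21 and 9.28 in the double mutant, 10.26, 10.06 and 10.06 in Klf3-/-, 10.17, 9.71, 9.37 and 9.55 in Klf8gt/gt, and 9.92, 10.06, 10.03 and 9.37 in wild type. All double-mutant arrays were below all others, by a narrow margin against the lowest wild-type and Klf8gt/gt arrays. The difference from wild type was -0.86 ± 0.23, 1.81-fold lower, with an adjusted p of 0.0537 in limma. It was -0.60 (adjusted p = 0.13 in limma) without double-mutant array 3, and over 26 alternative settings the adjusted p lay between 0.0147 and 0.16, below 0.05 in 9.

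H2ac8, the H2A gene that shares its start region with H2bc8, read 6.22, 6.30, 5.74 and 5.75 in the double mutant against 6.48, 6.39, 6.70 and 6.16 in wild type, at about the array median. The groups overlapped and the difference was -0.43 ± 0.18 (adjusted p = 0.22 in limma). H2bc4 read 11.28 and 11.12 on double-mutant arrays 1 and 2 and 9.85 and 9.92 on arrays 3 and 4, against 11.28, 11.21, 11.59 and 10.76 in wild type. Arrays 3 and 4, both of female embryos, lay below all wild-type arrays and arrays 1 and 2 inside their range, and the difference was -0.67 ± 0.29 (adjusted p = 0.238 in limma). H2bc18 differed by -0.28 ± 0.10 without overlap of the groups (adjusted p = 0.144 in limma). H2bc14, the brightest H2B gene with a row of its own, differed by -0.16 ± 0.11, H2bc3 by -0.32 ± 0.17 and H2bc9 by -0.23 ± 0.14. The one row with a difference above 0 was H2bc1, a testis H2B, at 0.01 ± 0.11.

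Of the H2A genes, H2ac15 read 12.07, 12.06, 11.94 and 11.81 in the double mutant against 12.08, 12.20, 12.14 and 12.05 in wild type, a difference of -0.15 ± 0.08 with overlap. H2aw, a cluster gene on chromosome 11, differed by -0.29 ± 0.13 (adjusted p = 0.252 in limma), and H2ac4 by -0.42 ± 0.21. The 7 H2B rows shared by 14 or 15 genes differed by -0.10 to -0.14.

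Most H3 genes were seen only through 10 bright rows shared by 12 genes each. These rows moved as a block on every array, with differences between -0.14 and -0.17 in the double mutant. The 3 single H3 genes were far dimmer. H3c15 read 7.41, 6.76, 5.99 and 7.62 in the double mutant, 8.59, 8.64 and 7.85 in Klf3-/-, 8.61, 8.62, 7.68 and 8.17 in Klf8gt/gt, and 8.32, 8.22, 8.03 and 6.62 in wild type. Wild-type array 4 lay inside the double-mutant range, and the difference was -0.85 ± 0.39 (adjusted p = 0.265 in limma). H3c4 differed by -0.24 ± 0.11 (adjusted p = 0.256 in limma).

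The H4 rows had a negative median difference from wild type in each mutant, -0.28 in the double mutant with 13 of 13 rows below 0, -0.19 in Klf3-/- with 11 of 13 and -0.18 in Klf8gt/gt with 13 of 13, and these comparisons share the wild-type arrays. H4f16, the only gene on chromosome 6 with a row of its own, read 11.17, 11.18, 10.84 and 10.59 in the double mutant, 11.16, 11.07 and 10.88 in Klf3-/-, 11.59, 11.03, 10.96 and 11.02 in Klf8gt/gt, and 11.56, 11.67, 11.22 and 11.35 in wild type. All arrays of the double mutant and of Klf3-/- were below all wild-type arrays. Its difference was -0.50 ± 0.16 in the double mutant (adjusted p = 0.102 in limma). H4c9 read 10.27, 10.19, 8.72 and 9.86 in the double mutant against 10.51, 10.70, 10.52 and 10.23 in wild type, a difference of -0.73 ± 0.28 (adjusted p = 0.174 in limma) that overlapped through double-mutant array 1. H4c4 differed by -0.39 ± 0.15 without overlap (adjusted p = 0.168 in limma), and H4c14 by -0.31 ± 0.11 with overlap (adjusted p = 0.151 in limma). An H4 row shared by 2 genes differed by -0.57 ± 0.19 without overlap (adjusted p = 0.117 in limma). The 5 H4 rows shared by 11 genes differed by -0.16 to -0.18.

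**Figure D4:**
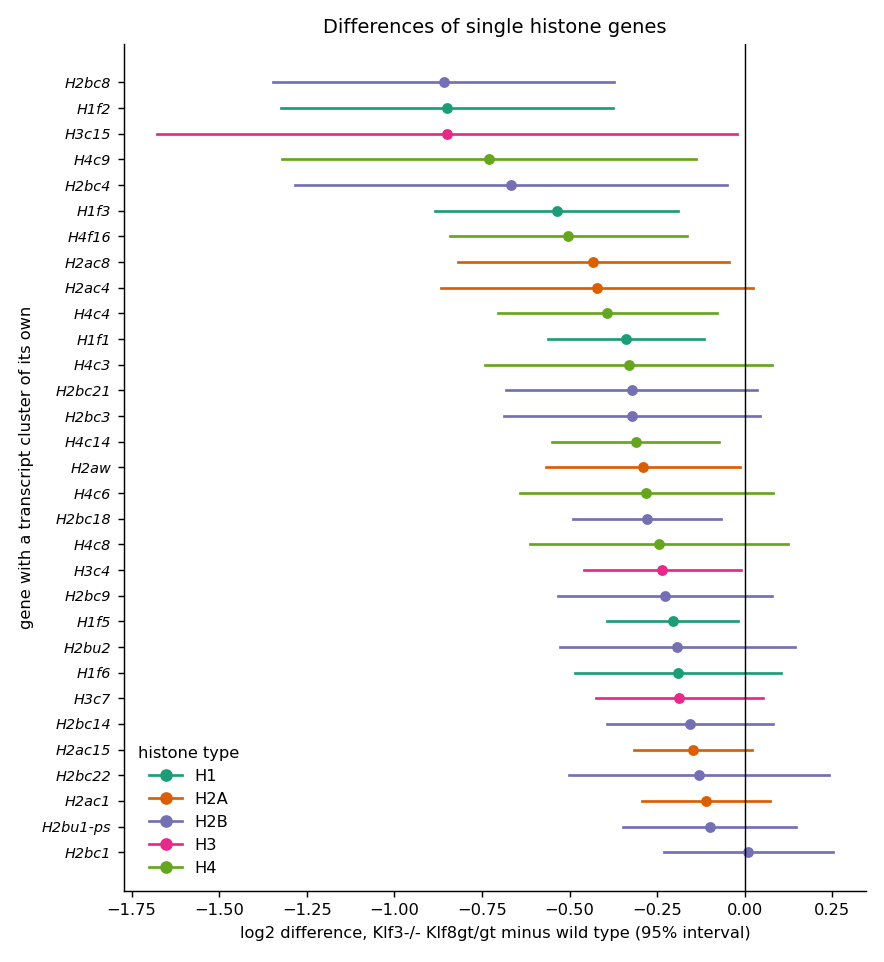
Log2 difference of the double mutant minus wild type (point, x axis) with its unadjusted 95% interval (line) from the limma fit, for the 31 genes with a row of their own, coloured by histone type and ordered by size. Of the points, 30 of 31 lie below 0, from -0.86 for H2bc8 to 0.01 for H2bc1.

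In Klf8gt/gt most histone rows had a mean below that of wild type. The test called 0 of 58 rows, and 0% of all tested rows. At an unadjusted p below 0.05 there were 2 histone rows, H4c6 and H2bc18, or 3.45% against 13.4% of all tested rows. The difference was below 0 for 55 of 58 rows and above 0 for 3, where 46.2% of all tested rows were above 0, with a median of -0.09 against -0.02 over all tested rows and -0.18 over the H4 rows. With male arrays alone, 2 of Klf8gt/gt and 4 of wild type, the median was -0.19 with 56 of 58 rows below 0. H4c6 read 12.53, 11.84, 11.74 and 11.90 in Klf8gt/gt against 12.31, 12.44, 12.36 and 12.42 in wild type. Klf8gt/gt array 1 was above all wild-type arrays and arrays 2 to 4 below them, and the difference was -0.38 ± 0.17 (adjusted p = 0.35 in limma). When Klf8gt/gt array 1 was left out, the median over the histone rows was -0.18 and 3 rows passed, all of H4 and all lower (background 2.58%), and 2 of them are the rows with identical values. When double-mutant array 1 was left out as well, 9 rows passed, all lower (background 3.99%), which were 7 H4 rows, H1f1 and H2bc18. The double-mutant array is not part of this comparison, so leaving it out changed only the shared estimate of the spread and no difference.

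In Klf3-/- the differences from wild type lay on both sides of 0 over all arrays, with H4 rows mostly below. Again 0 of 58 rows passed the test against wild type, where 0.585% of all tested rows did. There were 34 rows below 0 and 24 above (41.4%, against 48.1% of all tested rows above 0), with a median of -0.04. The median was -0.17 with 53 of 58 rows below 0 for the 1 male Klf3-/- array, array 3, against the male wild-type arrays, and 0.0087, of opposite sign, without that array. At an unadjusted p below 0.05 there were 2 histone rows, both of H4 and lower (3.45%, against 7.83% of all tested rows). Every Klf3-/- array lay below every wild-type array on 10 rows (17.2%, against 5.7% of all tested rows). On 0 rows were they all above, against 8.79% of all tested rows. Among the 10 are the H4 rows shared by 11 genes, with the pair of identical values, so these are not 10 separate measures. The median of the H4 rows was -0.19, that of the H2B rows -0.10, and those of H2A and H3 0.03 and 0.01. H4c6 read 11.98, 12.01 and 11.73 in Klf3-/- against 12.31, 12.44, 12.36 and 12.42 in wild type, a difference of -0.48 ± 0.18 (adjusted p = 0.521 in limma). H4f16 differed by -0.41 ± 0.17 (adjusted p = 0.584 in limma). H2bc8 and H1f2, low in the double mutant, differed from wild type by 0.28 ± 0.25 and 0.17 ± 0.24 in Klf3-/-.

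Against Klf3-/-, the double mutant again had 0 of 58 rows past the threshold, where 0.047% of all tested rows passed. At an unadjusted p below 0.05 there were 15 rows, all lower (25.9%, against 7.58% of all tested rows that were lower). The median difference was -0.15, 50 of 58 rows were below 0 and 8 above, where 45.6% of all tested rows were above. On 15 rows all double-mutant arrays lay below all Klf3-/- arrays (25.9%, against 5.45% of all tested rows). Several of the 15 are H3 rows shared by the same 12 genes. H2bc8 differed by -1.14 ± 0.25 and H1f2 by -1.02 ± 0.24 (adjusted p = 0.128 for each in limma), and H3c15 by -1.41 ± 0.42 (adjusted p = 0.176 in limma). The H4 rows did not follow, with a median of -0.02 and 7 of 13 below 0. H4c6 differed by 0.20 ± 0.18. Without double-mutant array 1, H1f2 passed as the 1 row (background 0.171%), and without Klf8gt/gt array 1 as well, 3 rows passed, all lower (background 0.41%). Leaving out the Klf8gt/gt array, which is not part of this comparison, changed only the shared estimate of the spread. Between male arrays alone the median was 0.02, of opposite sign, with 1 Klf3-/- array.

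Against Klf8gt/gt, 0 of 58 rows passed in the double mutant, where 3.35% of all tested rows did. At an unadjusted p below 0.05 there were 6 rows, all lower (10.3%, against 11.3% of all tested rows that were lower). The median difference was -0.10 with 52 of 58 rows below 0 and 6 above, where 49.3% of all tested rows were above, and 3 rows were lower without overlap (5.17%, against 4.12% of all tested rows). H1f2 differed by -0.80 ± 0.22 (adjusted p = 0.065 in limma), H3c15 by -1.32 ± 0.39 (adjusted p = 0.0754 in limma) and H2bc8 by -0.71 ± 0.23 (adjusted p = 0.102 in limma). In this comparison arrays of the same number deviated together (r = 0.534, 0.114, 0.158 and 0.18). That pairing was read from these same data and is not given by the labels. No other comparison had r above 0.1 in every pair, though the double mutant against Klf3-/- came near (r = 0.079, 0.071 and 0.158). With the replicate number as a block over all 15 arrays, a fit that rests on this pairing, 3 rows passed, all lower (background 2.45%). These were H1f2 (adjusted p = 0.0353 in limma), the row of an H2B and an H1 symbol (0.04) and H3c15 (0.0459). Without double-mutant array 1, 2 rows passed, all lower (background 1.78%), as did 2 without Klf8gt/gt array 1 as well (background 3.56%). Between male arrays alone the median was 0.09, of opposite sign.

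Whether the double mutant differed by more than both single mutants together was tested as an interaction, and 0 of 58 rows passed, as did 0.00427% of all tested rows. At an unadjusted p below 0.05 there were 7 rows (12.1%, against 14.4% of all tested rows). For H1f2 the interaction was -0.97 ± 0.33 and for H2bc8 -0.996 ± 0.34 (adjusted p = 0.223 for each in limma), and for H3c15 -1.89 ± 0.57 (adjusted p = 0.196 in limma). For H4c6 it was 0.58 ± 0.25 (adjusted p = 0.309 in limma), with a mean of 12.10 in the double mutant against 12.39 in wild type. The median over the H4 rows was 0.19 and that over the H3 rows -0.11.

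The histone rows moved together from array to array. Double-mutant array 3 was the lowest of the 15 arrays on 37 of 58 rows (63.8%, against 14.1% of all tested rows) and array 4 on 13 (22.4%, against 7.44%). Klf8gt/gt array 1 was the highest on 36 rows (62.1%, against 8.47% of all tested rows). The median of the 58 rows was 12.34, 12.34, 12.02 and 11.95 on the double-mutant arrays, 12.34, 12.35 and 12.15 on those of Klf3-/-, 12.55, 12.15, 12.12 and 12.16 on those of Klf8gt/gt, and 12.35, 12.47, 12.31 and 12.33 on those of wild type. Double-mutant arrays 1 and 2 lay inside the wild-type range by this median, and arrays 3 and 4 below it.

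**Figure D5:**
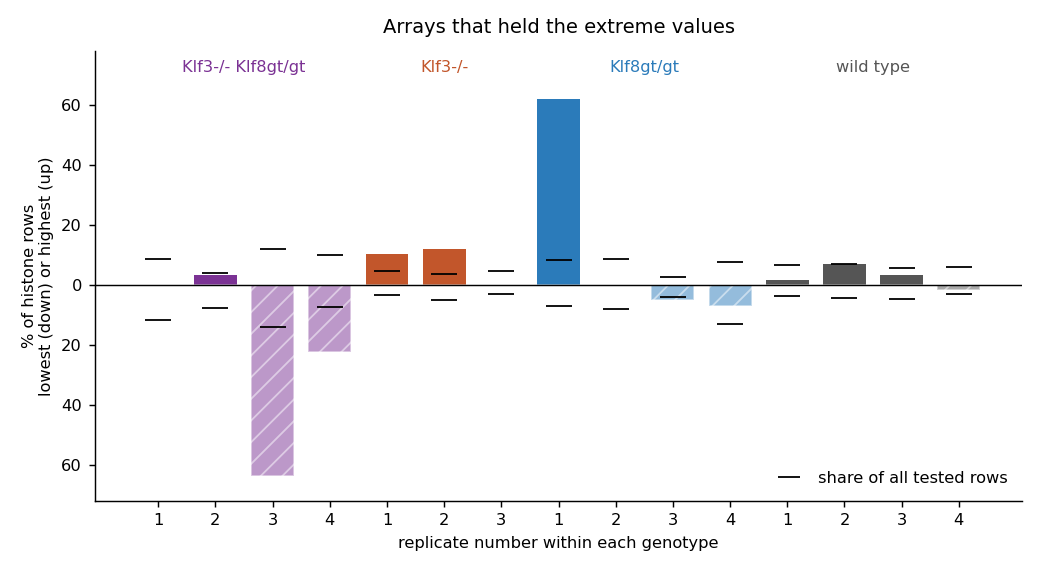
Share of the 58 histone rows (percent, y axis) in which each array was the highest (solid bars, up) or the lowest (hatched bars, down) of the 15 arrays, by genotype. Black dashes give the same share over all tested rows, and the tallest bars are Klf8gt/gt array 1 at 62.1% and double-mutant array 3 at 63.8%.

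Several other measures moved with these arrays. Double-mutant arrays 3 and 4 were the female ones, and both lay below both males on 39 of 58 rows (67.2%, against 18% of all tested rows). In Klf3-/- both females lay above the male on 56 of 58 rows (96.6%, against 32.1%), the opposite direction, and in Klf8gt/gt both females lay above both males on 16 (27.6%, against 14.6%). The mean of the 10 erythroid markers was 12.57, 12.33, 12.08 and 12.12 on the double-mutant arrays, 12.52, 12.53 and 12.32 in Klf3-/-, 12.69, 12.38, 12.43 and 12.46 in Klf8gt/gt, and 12.62, 12.69, 12.67 and 12.50 in wild type, so double-mutant arrays 3 and 4 were the lowest here too, and Klf8gt/gt array 1 was level with wild-type array 2 at the top. The part of the erythroid markers and of sex in the histone levels was not tested beyond the fits with sex given in the closing section.

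Of the 10 erythroid markers, 2 fell in the double mutant against wild type and 0 rose, with a median of -0.35. These were Klf1, the erythroid activator of the same factor family (-0.41, adjusted p = 0.0487 in limma), and Hemgn, a nuclear protein of blood progenitors (-0.50, adjusted p = 0.0234 in limma). Of 15 macrophage markers 7 fell, among them Cd5l (-2.54), Timd4 (-1.60), Marco (-1.54) and Adgre1 (-1.38), and 0 rose, with a median of -1.17. The macrophage mean ranged from 7.37 to 8.96 in the double mutant, 8.55 to 9.05 in Klf3-/-, 8.69 to 9.21 in Klf8gt/gt and 9.14 to 9.47 in wild type. Its lowest array was double-mutant array 1, which was not low for the histone rows. Of 8 stromal markers 2 rose, Col1a1 (0.86) and Col1a2 (0.58), and 0 fell. The median of the 8 was 0.28, and 2 of them were below 0, down to -0.40. Of 10 hepatocyte, 5 megakaryocyte, 8 granulocyte, 7 endothelial and 7 lymphoid or mast cell markers, 0 passed against wild type in the double mutant.

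In Klf8gt/gt, 10 of 10 hepatocyte markers were above 0 against wild type, with a median of 0.56, and 5 of 5 megakaryocyte markers, with a median of 0.48, and 0 of either list passed. The hepatocyte mean ranged from 10.79 to 11.85 in the double mutant, 11.63 to 11.85 in Klf3-/- and 11.69 to 12.32 in Klf8gt/gt, against 11.39 to 11.75 in wild type. Klf8gt/gt array 1, the highest for most histone rows, was the lowest of its genotype for hepatocyte (11.69, others 12.15 to 12.32), megakaryocyte (9.27, others 10.28 to 10.84) and endothelial markers (7.90, others 8.83 to 8.91). Double-mutant array 1 was the lowest of the 15 arrays for hepatocyte (10.79) and endothelial (7.88) markers. The part of these markers in the histone levels was not tested. Fewer cells of a type and less RNA per cell cannot be told apart in these bulk samples.

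Genes that work with the histone genes were read beside them, from lists chosen with earlier results of these data known. Of 26 genes of DNA replication and S phase, 0 passed in any mutant against wild type. In the double mutant 25 of the 26 were below 0, where 44.5% of all tested rows were above 0. The median was -0.17 against -0.02 over all tested rows, and Pole, a DNA polymerase, was the exception at 0.29. Mcm4, a subunit of the replicative helicase, differed by -0.23, Pcna, the sliding clamp, by -0.10, and E2f1, an activator of S-phase genes, by -0.43 (adjusted p = 0.0551 in limma). The mean of the list was 10.58, 10.44, 10.31 and 10.64 on the double-mutant arrays against 10.74, 10.69, 10.65 and 10.53 on the wild-type arrays, with array 3 the lowest of the 15. Of 17 genes of histone mRNA transcription and processing, 0 passed, with a median of -0.02 in the double mutant. Slbp, the stem-loop binding protein, differed by -0.19 (adjusted p = 0.504 in limma) and Npat, a coactivator of histone genes, by -0.01 (adjusted p = 0.983 in limma). Of 17 histone chaperones and 9 histone genes outside the clusters 0 passed, with medians of -0.09 and -0.12.

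By place in the genome, the 23 single-gene rows of the chromosome 13 cluster had a median difference of -0.28 in the double mutant against wild type, with 22 below 0. The 4 rows on chromosome 3 had a median of -0.32 and the 3 on chromosome 11 of -0.19, all below 0, and H4f16 on chromosome 6 is given above. Differences below 0 were thus found in all 4 places. The fit across the array had a median SE of 0.11 for the double mutant and 0.12 for Klf3-/- against wild type, and 3 or 4 arrays a genotype limit the precision. The labels do not say whether arrays of a genotype come from separate embryos, so the p-values rest on a spread between arrays that may be in part technical.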

How the data were processed

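RNA of 15 samples was hybridised to Affymetrix arrays. The deposited log2 signals, 1 per transcript cluster and array, were made by the authors with RMA and Partek (versions not named), per the submitters' processing notes, and were used as deposited. All 15 columns belong to these samples. The table has 35556 rows; 23410 have a gene symbol in the platform annotation (21789 a single symbol), and no source used here names the array's genome build. Former histone names came from the RefSeq gene table of GRCm38.p6, and promoters from RefSeq on the same build.

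The fit used limma 3.58.1 in R 4.3.3 with 1 mean per genotype over all 15 arrays, moderated variances (prior degrees of freedom 4.27) and Benjamini-Hochberg adjustment over the 23410 rows, at a threshold of 0.05. It gives all genotypes of a row 1 shared spread, also where their SDs differed, as for H1f3. It was tested on simulated data. The members and the gene lists were chosen with earlier results of these data known. Genes named are, per contrast, the 5 rows with the smallest p, per histone type the 4 brightest genes, and for the supporting lists those past the threshold, Slbp and Npat. Others, such as H4c9, H2ac8, H2bc1 and the S-phase genes, were chosen after their values were seen. Replicate numbers were taken to pair samples only where same-numbered arrays deviated together in every pair with r above 0.1, which held for Klf3-/- Klf8gt/gt against Klf8gt/gt (r = 0.534, 0.114, 0.158 and 0.18), a pairing that comes from the data and not from the labels.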

Additional observations from a re-analysis of the deposited data

Results flagged for a closer look

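In a group of 4 arrays, a value was singled out where its gap to the nearest other array, divided by the group's range, exceeded Dixon's 95% critical value. Of 96 groups tested 12 did so, where chance alone gives about 1 in 20, and the rows are not independent. Klf8gt/gt array 1 stood clear above the others for H2bc18 (10.63, others 10.27 to 10.32), H4f16 (11.59, others 10.96 to 11.03), H1f1 (13.26, others 12.87 to 12.93), H2ac15 (12.24, others 12.12), H2bc14 (12.58, others 12.11 to 12.19), H2bc9 (11.07, others 10.41 to 10.51) and H4c14 (12.93, others 12.48 to 12.54). The median of the H4 rows was 12.93 on that array, against 12.48 to 12.52 on the others of its genotype. The median of all 58 rows was 12.55 on it, against 12.12 to 12.16.

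Double-mutant array 3 stood clear below the others for H2bc8 (8.21, others 9.14 to 9.31). Wild-type array 4 was low for the row of an H2B and an H1 symbol (8.65, others 8.90 to 8.95), and Klf8gt/gt array 2 for H3c7 (4.21, others 4.39 to 4.42), a row below the array medians.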

How the results depend on the processing

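In the main fit 0 histone rows passed in each contrast, and the settings that gave another count are these, each with the share of all tested rows that passed in the same direction. For the double mutant against wild type, subtracting array medians gave 1 row (1.93%), array weights 3 (2.55%), a variance trend 2 (1.88%), leaving out dim rows 2 of 53 (4.33%), the replicate block 8 (2.35%), and leaving out both arrays that stood apart (double-mutant array 1 and Klf8gt/gt array 1) 12 (4.56%), all lower. Leaving out 1 array gave 0 to 6 rows, all lower, with 6 without double-mutant array 1 (3.35%), 4 without Klf8gt/gt array 1 (2.16%), 2 without wild-type array 4 (2.02%) and 1 without double-mutant array 4 (2.76%). For the double mutant against Klf3-/-, array weights gave 1 row (0.0683%), leaving out both arrays 3 (0.41%), and leaving out 1 array 0 to 1, without double-mutant array 1 (0.171%) or 4 (1.2%), all lower. For the double mutant against Klf8gt/gt, male arrays gave 1 row (H4c6, higher, 2.28%), the replicate block 3 (2.45%), leaving out both arrays 2 (3.56%), and leaving out 1 array 0 to 2, without double-mutant array 1 (1.78%) or 4 (5.13%) or wild-type array 4 (1.67%), lower apart from H4c6. For Klf3-/- against wild type, fitting those groups alone gave 1 row (H4c6, lower, 0.333%). For Klf8gt/gt against wild type, array weights gave 11 rows (6.28%, and 11.2% of all tested rows passed and were higher), male arrays 1 (0.248%), leaving out both arrays 9 (3.99%), and leaving out 1 array 0 to 3, the 3 without Klf8gt/gt array 1 (2.58%), all lower. For the interaction, array weights (0.944%), male arrays (0.38%) and leaving out both arrays (2.7%) gave 1 row each (H4c6 higher in the first and second, H1f2 lower in the third). The replicate block changed no other count. Apart from the double mutant against Klf8gt/gt, not every same-numbered pair had r above 0.1, and the replicate numbers were not taken to pair the arrays.

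With male arrays alone (2 double-mutant, 1 Klf3-/-, 2 Klf8gt/gt and 4 wild-type), the median over the histone rows was 0.0186 for the double mutant against Klf3-/-, 0.0877 against Klf8gt/gt and 0.28 for the interaction, all of opposite sign to the fit with all arrays, and the interaction of the row of an H2B and an H1 symbol was 0.0036. Leaving out 1 array, the median for the double mutant against wild type lay between -0.22 and -0.14, for Klf8gt/gt between -0.18 and -0.05, and for Klf3-/- between -0.07 and 0.0087. Male arrays alone gave -0.09, -0.17 and -0.19 for the double mutant, Klf3-/- and Klf8gt/gt against wild type, against -0.18, -0.04 and -0.09 with all arrays, so the order of the mutants differed. For single rows, 49 pairs of a row and a contrast were followed. They were picked because their unadjusted p was below 0.05 in limma or because they passed the threshold in some setting. Over 1272 settings of these pairs, 1191 kept their direction and side of the threshold, 80 passed it newly and 1 changed sign. Many settings, such as leaving out an array of a genotype outside the contrast, cannot change a difference, so these counts do not measure how stable the directions are. Sex as a covariate and a repeated quantile normalisation gave 0 rows in every contrast. The cause of each change was not tested. Arrays carry no detection calls here, and H3c7, H1f3, H1f6 and H2ac8 lie near or below the array medians.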
